A study of Mus musculus with 4 samples.

Results

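The genes for the 4 mouse Fc gamma receptors (Fcgr1, Fcgr2b, Fcgr3 and Fcgr4) and for the common gamma chain that 3 of them signal through (Fcer1g) were followed across all cell types and samples of a single-cell RNA sequencing experiment. They were chosen by name and are 5 of the 32285 genes in the count matrix. The cells were CD45+ cells, sorted from melanomas that had grown from YUMM1.7 cells carrying the model antigen ovalbumin in Rag2-/- mice, which have no T cells or B cells of their own and therefore make no antibody. On day 7 the mice were given OT-1 T cells, whose receptor recognises a peptide of ovalbumin, and tumours were taken on day 10, 72 h later.

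There were 4 samples, 1 per group, and all of them received OT-1 T cells. NTT tumours came from the line Y1.7_NTT_3A6, which is naive to targeted therapy, and RTT tumours from the line Y1.7_RTT_2B12, which is resistant to it. Per the study's methods, resistant cells and their engineered derivatives were kept in a BRAF inhibitor in culture. RTT_ROSA26 came from the resistant line Y1.7_RTT_ROSA26, which carries a control guide against the Rosa26 locus, and RTT_PTGS12KO from Y1.7_RTT_PTGS12KO, in which the cyclooxygenase genes Ptgs1 and Ptgs2 were knocked out. Both were made with inducible Cas9 and all lines derive from YUMM1.7, which carries a Braf mutation and a loss of Cdkn2a among its alterations. The edits are in the injected cancer cells, which the sort is meant to leave out, so counts of Ptgs1 and Ptgs2 in these libraries check no label. The mice were matched for age and sex per the methods. The labels give 1 tumour per condition, whereas the study's figure legends describe pooled tumours, and this was not settled. With 1 sample per group, no difference given here could be checked against replicates or tested, and a difference between lines cannot be told apart from one between individual tumours.

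Fc gamma receptors bind the constant part of IgG antibodies and let myeloid cells and NK cells respond to cells and particles that antibodies have coated. Fcgr1 encodes the high-affinity receptor (CD64), Fcgr3 a low-affinity receptor (CD16) and Fcgr4 a receptor of intermediate affinity, and all of them are activating. They rely on the common gamma chain, whose activation motif recruits the kinase Syk after phosphorylation by Src-family kinases. Fcgr2b encodes the inhibitory receptor (CD32), which carries an inhibitory motif in its own tail and recruits the lipid phosphatase encoded by Inpp5d. Monocytes and macrophages carry both kinds, and the balance of activating to inhibitory receptors is known to set how strongly they respond to antibodies. Interferons are known to raise Fcgr1 and Fcgr4 in mouse monocytes and macrophages. Mouse NK cells carry Fcgr3 and lack Fcgr2b, and T cells lack Fcgr1 and Fcgr4. The staining before the sort included an antibody against CD16 and CD32 to block unspecific binding. It binds the proteins of Fcgr3 and Fcgr2b, whereas only RNA was counted here.

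In GRCm38, 4 of the 5 genes lie close together on chromosome 1. Fcgr2b spans 170958617 to 170976547 on the minus strand, Fcgr4 171018920 to 171029761 on the plus strand, Fcgr3 171051174 to 171064935 on the minus strand and Fcer1g 171229572 to 171234365 on the minus strand. Fcgr1 lies on chromosome 3, from 96282909 to 96293969 on the minus strand. All of them are annotated as protein coding. The annotation also places an antisense gene, Gm38204, opposite Fcgr2b, a microRNA gene, Mir6546, within Fcgr3 and a small nuclear RNA gene, Gm26110, within Fcgr4, so that reads in these overlaps are uncertain. Fcgr2b and Fcgr3 share sequence. Of all stretches of 60 bases in the annotated transcripts of Fcgr3, 7.85% also occur in Fcgr2b. In the last 600 bases of each transcript, where 3' tags fall, none of the stretches of Fcgr3, Fcgr1, Fcgr4 or Fcer1g occurs in another gene, and 2.35% of those of Fcgr2b occur in Fcgr3.

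The promoters of the 4 receptors are shown because Fcgr1 and Fcgr4 on one side and Fcgr2b on the other differed in how their levels varied between the samples. Each window runs from 250 bases before to 50 bases after a RefSeq start of the gene in GRCm38.p6 and is written 5′ to 3′ on the gene's own strand. For Fcgr2b and Fcgr3 this start lies inside the span of the gene given before. For Fcgr3, which has 2 such windows, the one with the higher coordinates is shown. Capitals mark matches, on either strand, to TTCNNNGAA (the letters of a STAT-bound gamma-activated site), GAAA, any 2 bases and GAAA (the letters of an interferon-stimulated response element) or GAGGAA (a core that PU.1, a factor of myeloid cells, prefers).
Fcgr1, chr3:96293920-96294219, minus strand: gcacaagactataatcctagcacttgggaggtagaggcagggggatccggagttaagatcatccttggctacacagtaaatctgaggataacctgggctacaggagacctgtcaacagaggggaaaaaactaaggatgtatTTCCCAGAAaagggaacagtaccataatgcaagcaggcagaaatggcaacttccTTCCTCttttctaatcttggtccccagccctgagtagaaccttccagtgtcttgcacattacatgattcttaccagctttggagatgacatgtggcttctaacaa
Fcgr4, chr1:171018676-171018975, plus strand: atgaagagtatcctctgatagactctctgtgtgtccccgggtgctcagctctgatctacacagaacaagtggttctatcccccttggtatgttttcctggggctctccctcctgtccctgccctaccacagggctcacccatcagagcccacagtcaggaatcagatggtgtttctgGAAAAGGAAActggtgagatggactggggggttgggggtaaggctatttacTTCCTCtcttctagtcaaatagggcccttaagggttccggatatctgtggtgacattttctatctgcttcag
Fcgr3, chr1:171059354-171059653, minus strand: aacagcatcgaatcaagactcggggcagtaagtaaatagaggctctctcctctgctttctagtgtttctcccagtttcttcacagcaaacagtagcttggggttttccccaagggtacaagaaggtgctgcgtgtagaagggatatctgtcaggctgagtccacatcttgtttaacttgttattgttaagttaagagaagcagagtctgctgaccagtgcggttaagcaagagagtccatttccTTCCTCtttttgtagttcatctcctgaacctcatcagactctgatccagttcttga
Fcgr2b, chr1:170976022-170976321, minus strand: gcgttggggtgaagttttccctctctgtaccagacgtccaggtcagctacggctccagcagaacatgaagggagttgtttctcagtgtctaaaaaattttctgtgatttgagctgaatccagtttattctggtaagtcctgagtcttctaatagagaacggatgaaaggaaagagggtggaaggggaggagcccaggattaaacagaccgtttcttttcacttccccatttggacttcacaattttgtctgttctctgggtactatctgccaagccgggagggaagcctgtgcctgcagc

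Relative to the start, the Fcgr1 window holds TTCNNNGAA from −109 to −101 and GAGGAA, on the opposite strand, from −55 to −50. The Fcgr4 window holds the letters of the interferon-stimulated response element from −73 to −64 and GAGGAA, on the opposite strand, from −22 to −17. The Fcgr3 window holds GAGGAA alone, on the opposite strand from −6 to −1, and the windows of Fcgr2b and Fcer1g hold none of the letters searched. Among 32851 promoter windows of the same length, 8.30% hold TTCNNNGAA, 3.44% hold those of the interferon-stimulated response element and 28.3% hold GAGGAA. No matches overlap, and a match is a description of letters only.

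The samples held 8266 (NTT), 7970 (RTT), 6836 (RTT_ROSA26) and 10296 (RTT_PTGS12KO) cells, in which 69332486, 116698483, 110210969 and 146829369 UMIs (molecules told apart by their random tags) had been counted. The median cell held 7293 UMIs in NTT and between 12219 and 13280 in the other samples. Cells of all samples fell in each of 3 chip loads, which were read from the suffix of the cell names. Of the barcode sequences, 75 occurred in cells of more than 1 sample across loads and 0 within a load. The authors' 17 cell type names were used. The 10 leading genes held at least 1 marker of the named type for 12 of them, with an NK marker as well in cDC2s. Those of TAM_Spp1, TAM_H2Ab1, TAM_cycling and Ctsk_Macro held no marker of the macrophage list, and those of Macro held 1 of cDC2s and none of macrophages, so these are the authors' names only. Infl_Mono was led by interferon-stimulated genes. Monocytes were summed over 3 names (Monocyte_1, Infl_Mono and Monocyte_3) and macrophages over 5 (TAM_C1q, TAM_Spp1, TAM_cycling, TAM_H2Ab1 and Ctsk_Macro), without Macro.

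Levels are given as CPM, the UMIs of a gene scaled to a fixed total of UMIs in the cells summed. Ranges in brackets are 95% intervals that cover counting error only (exact Poisson for a level, exact Clopper-Pearson for a share or a ratio, exact conditional odds ratio for a difference between ratios). Types are called overlapping where these intervals, or the ranges over chip loads, overlap. Capture differs between genes, so levels were compared between samples and types and not between genes. The types were clustered on these cells, Fcgr4 is 1 of the 10 leading genes of TAM_H2Ab1 and the study used Fcgr1 to describe monocytes, so levels across types are a description.

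Among types with at least 50 cells, Fcgr1 was highest in monocytes in every sample. In Infl_Mono it stood at 1051, 889.7, 704 and 761 CPM in NTT, RTT, RTT_ROSA26 and RTT_PTGS12KO, and in Monocyte_1 at 729, 549, 774 and 657 CPM in the same order. Infl_Mono stood first in NTT, RTT and RTT_PTGS12KO, while in RTT_ROSA26, with 86 and 54 cells, the pair overlapped. TAM_H2Ab1 held 685 CPM in NTT, 496 in RTT and 533 in RTT_PTGS12KO, overlapping Monocyte_1 in NTT and RTT and below it in RTT_PTGS12KO. The larger macrophage types lay lower, with TAM_C1q at 280.5, 271 and 336 CPM and TAM_Spp1 at 320.3, 357 and 368 CPM in RTT, RTT_ROSA26 and RTT_PTGS12KO. Ctsk_Macro, named after the protease gene Ctsk, had the lowest level of the macrophage types, at 98.2, 37.5 and 107 CPM in these samples. Neutrophils held 474, 199, 242 and 361 CPM and cDC2s 363, 163, 107 and 295 CPM in NTT, RTT, RTT_ROSA26 and RTT_PTGS12KO.

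Among types with at least 50 cells, Fcgr4 was highest in TAM_H2Ab1 and Monocyte_1. TAM_H2Ab1 held 1137 (1091 to 1184) CPM in NTT, 1185 (1114 to 1260.3) in RTT and 821 (798 to 844) in RTT_PTGS12KO, with 192, 63 and 364 cells, and its 11 cells in RTT_ROSA26 held 711 CPM. Monocyte_1 held 754, 1173, 538 and 758 CPM in NTT, RTT, RTT_ROSA26 and RTT_PTGS12KO, and overlapped TAM_H2Ab1 in RTT. The non-classical cells of Monocyte_3 were few, with 750.1 CPM over 26 cells in NTT and 1189 CPM over 33 cells in RTT_PTGS12KO. In contrast to Fcgr1, Fcgr4 was lower in Infl_Mono than in Monocyte_1 in RTT (745 CPM), RTT_ROSA26 (339 CPM) and RTT_PTGS12KO (528 CPM), and in NTT (730.5 CPM) the pair overlapped. TAM_C1q held 224, 136 and 273 CPM, TAM_Spp1 241, 110.2 and 275 CPM and TAM_cycling 182, 94.2 and 378 CPM in RTT, RTT_ROSA26 and RTT_PTGS12KO. Macro held 506, 281 and 630.2 CPM in these samples, overlapping Infl_Mono in RTT_ROSA26 and RTT_PTGS12KO. Neutrophils held 560.3, 319, 166 and 558 CPM in NTT, RTT, RTT_ROSA26 and RTT_PTGS12KO, and overlapped Infl_Mono in the last.

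Fcgr3 was spread more evenly over myeloid cells. In NTT, Monocyte_1, Infl_Mono, TAM_H2Ab1, neutrophils and TAM_cycling lay between 620.3 and 775 CPM, with each neighbour in this order overlapping the next. In RTT, 8 types lay between 752 and 1128 CPM in the same way. Neutrophils held 655, 843, 602 and 729 CPM in NTT, RTT, RTT_ROSA26 and RTT_PTGS12KO, and cDC2s 278, 357, 193 and 379.6 CPM. Ctsk_Macro held 323, 105 and 178 CPM in RTT, RTT_ROSA26 and RTT_PTGS12KO.

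Fcgr2b, the inhibitory receptor, had another order. TAM_C1q held 1085, 792 and 809 CPM in RTT, RTT_ROSA26 and RTT_PTGS12KO, TAM_Spp1 887, 701 and 772 CPM and Monocyte_1 753, 645 and 573 CPM. Both macrophage types had the higher levels, although TAM_Spp1 overlapped Monocyte_1 in RTT_ROSA26. Macro overlapped TAM_C1q in RTT (1058 CPM), stood above every other type with at least 50 cells in RTT_ROSA26 (1066 CPM) and held 446 CPM in RTT_PTGS12KO. In NTT, where TAM_C1q and TAM_Spp1 had 12 and 20 cells, Monocyte_1 stood first among types with at least 50 cells, at 648 CPM. Infl_Mono held 563, 788, 414 and 333 CPM in NTT, RTT, RTT_ROSA26 and RTT_PTGS12KO, below Monocyte_1 except in RTT.

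Fcer1g, the gamma chain, was abundant in all monocyte and macrophage types. TAM_H2Ab1 held 5494, 5186 and 4257 CPM in NTT, RTT and RTT_PTGS12KO, and Monocyte_1 5137, 4860.0 and 4256 CPM in these samples and 4096 in RTT_ROSA26. Ctsk_Macro was again the lowest of the macrophage types, with 2374, 1742 and 2319 CPM in RTT, RTT_ROSA26 and RTT_PTGS12KO. Mast cells, which use the gamma chain for the IgE receptor, numbered 1, 13, 24 and 5 in NTT, RTT, RTT_ROSA26 and RTT_PTGS12KO and held 4637, 5236, 3582 and 2245 CPM.

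**Figure D1:**
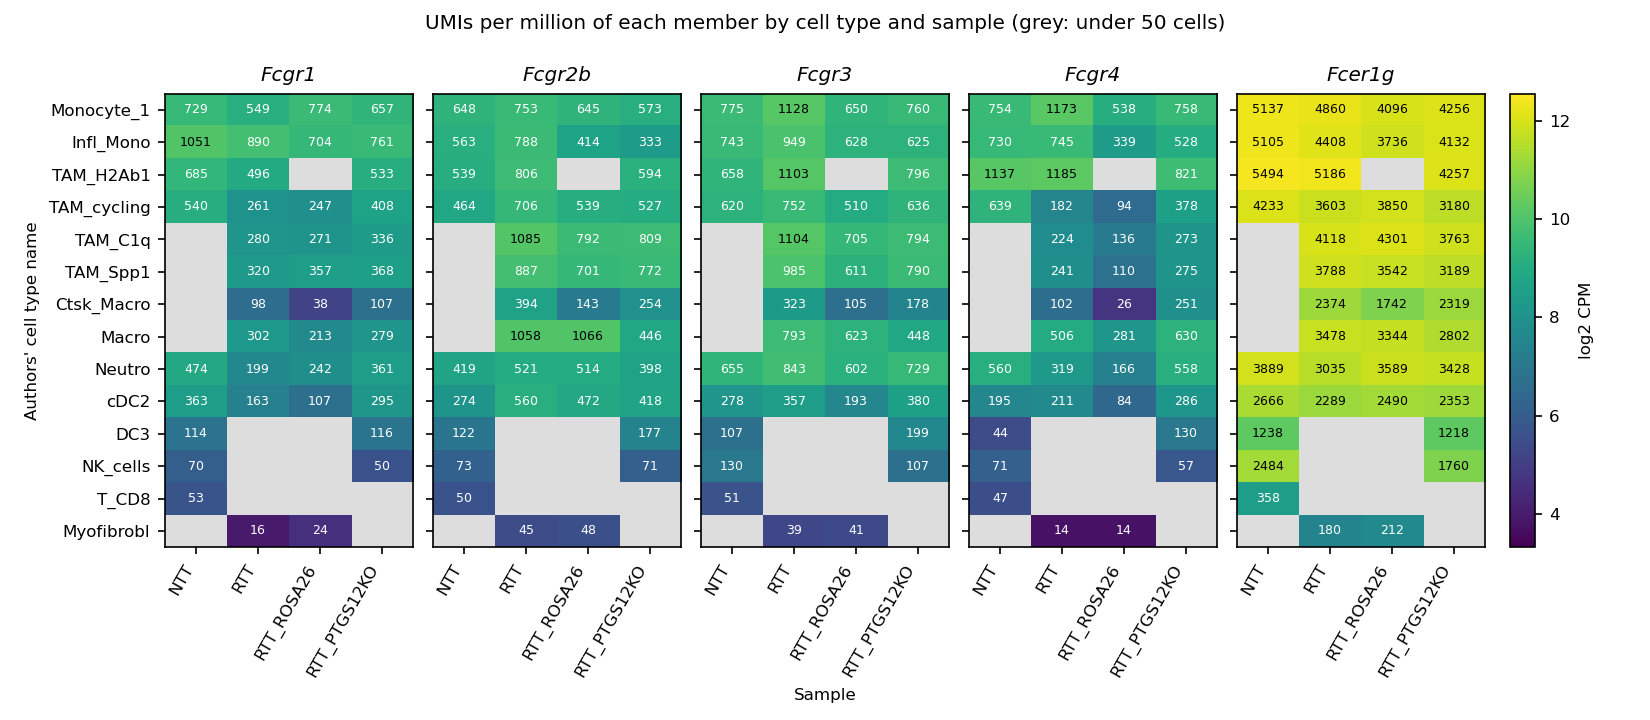
Each panel plots 1 gene, with the authors' cell types as rows and the samples as columns. Numbers are CPM, colour is log2 CPM, and types with under 50 cells in a sample are grey. Fcgr1 and Fcgr4 are lower in TAM_C1q, TAM_Spp1, TAM_cycling and Ctsk_Macro of RTT and RTT_ROSA26 than in Monocyte_1 of these samples, with Fcgr4 at 26.1 CPM in Ctsk_Macro of RTT_ROSA26, whereas Fcgr2b stands at 1085 and 792 CPM in TAM_C1q of these samples.

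T cells should lack Fcgr1 and Fcgr4, as should Myofibrobl, whose 10 leading genes held 1 marker of the stroma list (Col1a2). Their levels were therefore taken as background. Whether these UMIs came from free RNA or from doublets with myeloid cells was not tested. In NTT, 93 T cells held 52.5 (41.8 to 65.2) CPM of Fcgr1, 49.98 (39.5 to 62.4) of Fcgr2b, 51.3 (40.6 to 63.8) of Fcgr3 and 46.8 (36.7 to 58.8) of Fcgr4. These are between 7.37% and 9.48% of the level over all NTT cells. In RTT, 249 cells of Myofibrobl held 15.7, 44.6, 39.3 and 13.8 CPM of Fcgr1, Fcgr2b, Fcgr3 and Fcgr4, between 4.47% and 5.86% of the level over all RTT cells. The 401 cells of Ctsk_Macro in RTT_ROSA26, with 37.5 CPM of Fcgr1 and 26.1 of Fcgr4, overlapped Myofibrobl of that sample (24.5 and 13.7 CPM). The overlap was over the chip loads while the counting intervals lay apart, and these levels are not read as expression. Neutrophils held 22.3, 306, 633 and 200 CPM of Fcrls, a leading gene of TAM_C1q, in NTT, RTT, RTT_ROSA26 and RTT_PTGS12KO. These are 135%, 57.6%, 78.5% and 71.6% of the level over all cells of the sample. How much of the receptor UMIs of neutrophils came from macrophages was not tested, which limits all neutrophil values given.

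NK cells held the gamma chain, and in NTT more Fcgr3 than the T cells. The 709 NK cells of NTT held 2484 (2447 to 2521) CPM of Fcer1g and 129.8 (122 to 138) CPM of Fcgr3. Fcgr1, Fcgr2b and Fcgr4 stood at 69.8, 72.9 and 70.6 CPM there. Fcgr1 and Fcgr4 overlapped the T cells in the counting intervals or over the chip loads, and the somewhat higher Fcgr2b is not read as expression. The 306 NK cells of RTT_PTGS12KO held 1760.0 (1724 to 1796) CPM of Fcer1g and 107 (98.4 to 116) CPM of Fcgr3, with 49.6, 71.1 and 57.0 CPM of the others. RTT and RTT_ROSA26 had 13 and 26 NK cells, too few to compare.

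The first question was how these genes differed between tumours naive and resistant to targeted therapy. In the sum of all cells, Fcgr1 stood at 663, 269, 247 and 437 CPM in NTT, RTT, RTT_ROSA26 and RTT_PTGS12KO, and Fcgr4 at 635, 244, 109 and 446 CPM. Both were highest in NTT, next in RTT_PTGS12KO and lowest in RTT_ROSA26. Fcgr2b stood at 527, 836, 597 and 567 CPM, Fcgr3 at 648, 880.5, 536 and 662 CPM and Fcer1g at 4549.9, 3558, 3650.2 and 3458 CPM in the same order. Fcgr2b and Fcgr3 were highest in RTT. In such a sum, fewer cells of a type and less RNA per cell cannot be told apart. Monocytes made up 80.1% of NTT cells, 6.55% of RTT, 2.11% of RTT_ROSA26 and 39.0% of RTT_PTGS12KO.

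For NTT against RTT in all cells, the log2 ratio was 1.30 (1.28 to 1.32) for Fcgr1 and 1.38 (1.36 to 1.40) for Fcgr4. It was −0.67 (−0.68 to −0.65) for Fcgr2b, −0.44 (−0.46 to −0.43) for Fcgr3 and 0.35 (0.35 to 0.36) for Fcer1g. Of the 5 genes, 2 were past 2-fold, both higher in NTT, against a background of 14.1% of 6999 genes whose mean CPM over both samples reached 10, a filter that all 5 genes passed in every comparison. The median log2 ratio was 0.35 over the 5 genes and −0.092 over all genes. When the 6 types with at least 50 cells in both samples were given the same weight, Fcgr1 came to 0.59 and Fcgr4 to 0.074, and 0 of the 5 genes were past 2-fold, against 3.91% of all genes.

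Within monocytes the pattern was different. Fcgr4 stood at 749 (741 to 756) CPM in NTT and 1062 (1034 to 1091) in RTT, with 424 (385 to 466) for RTT_ROSA26 and 732 (724 to 740.0) for RTT_PTGS12KO, so RTT had the highest level of the 4 samples. The log2 ratio of NTT against RTT was −0.50 (−0.55 to −0.46). Fcgr1 held 802, 637, 724 and 668 CPM in these samples, a log2 ratio of 0.33 (0.28 to 0.38), and was highest in NTT. Fcgr2b, with 628, 762, 507 and 543 CPM and a log2 ratio of −0.28 (−0.33 to −0.23), and Fcgr3, with 767, 1081, 634 and 742 CPM and −0.50 (−0.54 to −0.45), were lower in NTT than in RTT. Fcer1g, with 5131, 4743, 3894 and 4245 CPM, was close to equal, at 0.11 (0.094 to 0.13). Of the 5 genes, 0 were past 2-fold, against 3.32% of 6499 genes. Their median was −0.28, and that of all genes 0.035. RTT rests on 522 monocytes and NTT on 6619.

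Within macrophages, Fcgr4 stood at 860.4 (832 to 889) CPM in NTT and 221 (218 to 224) in RTT, with 106 (104 to 108) for RTT_ROSA26 and 356 (352 to 359) for RTT_PTGS12KO, which gave a log2 ratio of 1.96 (1.91 to 2.01) between NTT and RTT. Fcgr1 held 592, 277, 253 and 377 CPM in these samples, a log2 ratio of 1.09 (1.03 to 1.16). NTT was highest for both genes and RTT_ROSA26 lowest. Fcgr2b, with 534, 922, 615 and 636 CPM, gave −0.79 (−0.85 to −0.73), and Fcgr3, with 663, 962, 557 and 695 CPM, gave −0.54 (−0.59 to −0.48). Both were highest in RTT. Fcer1g held 4825, 3846, 3784 and 3367 CPM and gave 0.33 (0.31 to 0.35). The 2 genes past 2-fold, Fcgr1 and Fcgr4, were both higher in NTT, against a background of 8.89% of 6997 genes. The median was 0.33 over the 5 genes and 0.0019 over all genes.

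The macrophages compared differ in make-up, since 192 of 308 NTT macrophages were TAM_H2Ab1, against 63 of 6734 in RTT. Within TAM_H2Ab1 the log2 ratio of NTT against RTT was −0.060 (−0.17 to 0.047) for Fcgr4 and 0.46 (0.31 to 0.62) for Fcgr1. Within TAM_cycling, with 79 and 873 cells, it was 1.82 (1.71 to 1.92) and 1.05 (0.94 to 1.16). With both types given the same weight in each sample, Fcgr4 came to 0.38 and Fcgr1 to 0.69, so 0 were past 2-fold, against 5.26% of all genes. Without TAM_H2Ab1, Fcgr4 came to 1.44 and Fcgr1 to 0.85, and 1 of the 5 genes was past 2-fold, against 8.81% of all genes. Both of these alternatives were added after the data were seen.

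Over the 6 types with at least 50 cells in both samples, Fcgr1 was higher in NTT in all 6 (log2 ratios 0.24 to 1.25), and Fcgr2b and Fcgr3 were lower in all 6 (−1.03 to −0.22 and −0.74 to −0.28). Fcgr4 was higher in 2, TAM_cycling and neutrophils, with 0.81 (0.64 to 0.98) in the latter. It was lower in 1, Monocyte_1, at −0.64 (−0.68 to −0.59). Its interval held 0 in 3, which were Infl_Mono, TAM_H2Ab1 and cDC2s.

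**Figure D2:**
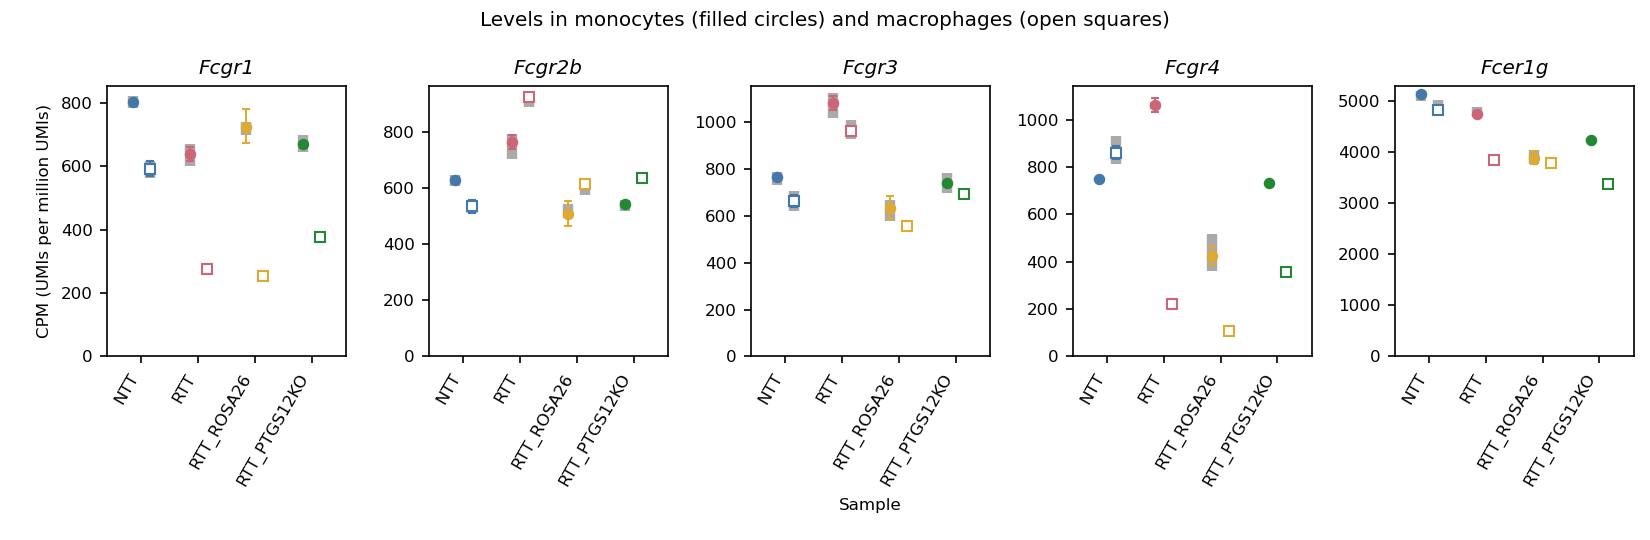
CPM of each gene (vertical axes, starting at 0) by sample, with filled circles for monocytes and open squares for macrophages. Error bars are exact Poisson intervals and grey bars the range over the 3 chip loads. In macrophages Fcgr4 ranges from 106 CPM in RTT_ROSA26 to 860.4 CPM in NTT, and in monocytes it is highest in RTT, at 1062 CPM.

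The second question was what the loss of Ptgs1 and Ptgs2 in resistant cancer cells went with. For RTT_PTGS12KO against RTT_ROSA26, Fcgr4 was the member that differed most, with a log2 ratio of 2.04 (2.01 to 2.07) in all cells, 0.79 (0.65 to 0.93) in monocytes and 1.75 (1.72 to 1.78) in macrophages. The sum over all cells mixes 39.0% and 2.11% of monocytes, and with the 9 types that had at least 50 cells in both samples given the same weight, Fcgr4 came to 1.15 and Fcgr1 to 0.27. Fcgr4 was then still past 2-fold, against 2.96% of all genes. Fcgr4 is in a list that the study drew from this very comparison (TME-COX), so its direction here is not independent evidence. It was higher in RTT_PTGS12KO in all 9 types. The log2 ratio was 3.26 (3.05 to 3.48) in Ctsk_Macro, where the level in RTT_ROSA26 overlapped background. It was 2.00 (1.95 to 2.05) in TAM_cycling, 1.32 (1.23 to 1.40) in TAM_Spp1 and 1.01 (0.96 to 1.07) in TAM_C1q. Smaller ratios were found in Infl_Mono, 0.64 (0.43 to 0.86), and in Monocyte_1, 0.49 (0.30 to 0.69). In neutrophils, whose content of macrophage RNA was not tested, the log2 ratio was 1.75 (1.57 to 1.93), and in cDC2s 1.76 (1.55 to 1.98).

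The other members differed less. Fcgr1 gave 0.83 (0.81 to 0.85) in all cells, 0.58 (0.55 to 0.60) in macrophages and −0.12 (−0.22 to −0.0079) in monocytes. By type it was higher in RTT_PTGS12KO in 6 of 9, with 1.51 (1.30 to 1.72) in Ctsk_Macro, where the level in RTT_ROSA26 again overlapped background, 1.46 (1.28 to 1.66) in cDC2s and 0.72 (0.69 to 0.76) in TAM_cycling but 0.045 (−0.010 to 0.10) in TAM_Spp1. Fcgr3 gave 0.31 (0.29 to 0.32) in all cells, 0.23 (0.11 to 0.34) in monocytes and 0.32 (0.30 to 0.34) in macrophages, and was higher in 7 of 9 types. Fcgr2b gave −0.077 (−0.091 to −0.062), 0.10 (−0.027 to 0.23) and 0.049 (0.033 to 0.066). By type it ranged from −1.26 (−1.40 to −1.11) in Macro to 0.82 (0.70 to 0.95) in Ctsk_Macro, and it was −0.31 in Infl_Mono and −0.17 in Monocyte_1, so that its direction in monocytes turned with equal weights of the types (−0.23). Fcer1g gave −0.078 (−0.084 to −0.072), 0.12 (0.079 to 0.17) and −0.17 (−0.18 to −0.16). With TMM factors, another scaling of the totals, the ratios of Fcgr2b and Fcer1g in all cells turned to 0.055 and 0.053.

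Past 2-fold was 1 of the 5 genes in all cells, against 5.76% of 7083 genes, 0 in monocytes, against 3.98% of 6405 genes, and 1 in macrophages, against 3.34% of 7086 genes. Where there was 1, it was Fcgr4. The median over the 5 genes was 0.31 in all cells, 0.12 in monocytes and 0.32 in macrophages, and over all genes −0.13, −0.0070 and −0.086. RTT_ROSA26 rests on 144 monocytes, of which 86 were Infl_Mono, against 635 of 4015 in RTT_PTGS12KO.

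RTT_ROSA26 against RTT compares resistant lines that both keep the cyclooxygenase genes, and serves as a yardstick for how far samples of one kind differ. It shares RTT with the first comparison and RTT_ROSA26 with the second. Fcgr4 was lower in RTT_ROSA26, with log2 ratios of −1.16 (−1.19 to −1.13) in all cells, −1.32 (−1.47 to −1.18) in monocytes and −1.06 (−1.10 to −1.03) in macrophages. Fcgr3 was lower as well, at −0.72 (−0.73 to −0.70), −0.77 (−0.89 to −0.65) and −0.79 (−0.80 to −0.77), and so was Fcgr2b, at −0.48 (−0.50 to −0.47), −0.59 (−0.72 to −0.45) and −0.58 (−0.60 to −0.57). Fcgr1 and Fcer1g differed less, at −0.12 (−0.15 to −0.10) and 0.037 (0.031 to 0.043) in all cells. In monocytes Fcer1g gave −0.28 (−0.33 to −0.24) and Fcgr1 0.19 (0.067 to 0.30), with Monocyte_1 and Infl_Mono on opposite sides of 0 for Fcgr1. In macrophages they gave −0.024 (−0.030 to −0.017) and −0.13 (−0.16 to −0.11). Over 10 types, Fcgr4 and Fcgr3 were each lower in RTT_ROSA26 in 9 and Fcgr2b in 7, and the intervals of all 3 held 0 in Myofibrobl. The single gene past 2-fold was Fcgr4, lower in RTT_ROSA26, against 1.6% of 7142 genes in all cells, 3.71% of 6440 genes in monocytes and 1.3% of 7058 genes in macrophages. The macrophage value lay at the threshold, and was not past 2-fold in chip load 1 alone (−0.99) or with 10 added to CPM. The median over the 5 genes was −0.48, −0.59 and −0.58, and over all genes 0.058, 0.011 and 0.065.

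In monocytes, the size of this yardstick for Fcgr4 exceeded that of both NTT against RTT and RTT_PTGS12KO against RTT_ROSA26. In the sum of macrophages both of those exceeded the yardstick, although the knockout contrast shares with it RTT_ROSA26, the sample with the lowest level. RTT_PTGS12KO stood above RTT as well, at 356 against 221 CPM, in sums that differ in make-up. By type it held 273 against 224 CPM in TAM_C1q and 275 against 241 in TAM_Spp1. In TAM_cycling it was 378 against 182 and in Ctsk_Macro 251 against 102, but in TAM_H2Ab1 RTT was higher, at 1185 against 821. For NTT against RTT, whether Fcgr4 exceeded the yardstick in macrophages turned with their make-up. It came to 0.38 with TAM_H2Ab1 and TAM_cycling given the same weight. Within TAM_H2Ab1, which has Fcgr4 among its leading genes, it came to −0.060. Within TAM_cycling it came to 1.82, where the yardstick was −0.95, and the sum without TAM_H2Ab1 stayed past 2-fold. With types given the same weight the yardstick was −1.03, over other types, as TAM_H2Ab1 had 11 cells in RTT_ROSA26. For Fcgr3 in monocytes and macrophages and for Fcgr2b and Fcer1g in monocytes, the yardstick was larger in size than both other contrasts. For Fcgr2b in monocytes it depended on Infl_Mono, which made up 86 of 144 monocytes in RTT_ROSA26 and 138 of 522 in RTT. Without Infl_Mono it fell to −0.25, and within Monocyte_1 it was −0.22, as was NTT against RTT. For Fcgr2b in macrophages it was larger than the knockout contrast and smaller than NTT against RTT. For Fcgr1 in macrophages it was smaller than both other contrasts, at −0.13 (−0.16 to −0.11).

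**Figure D3:**
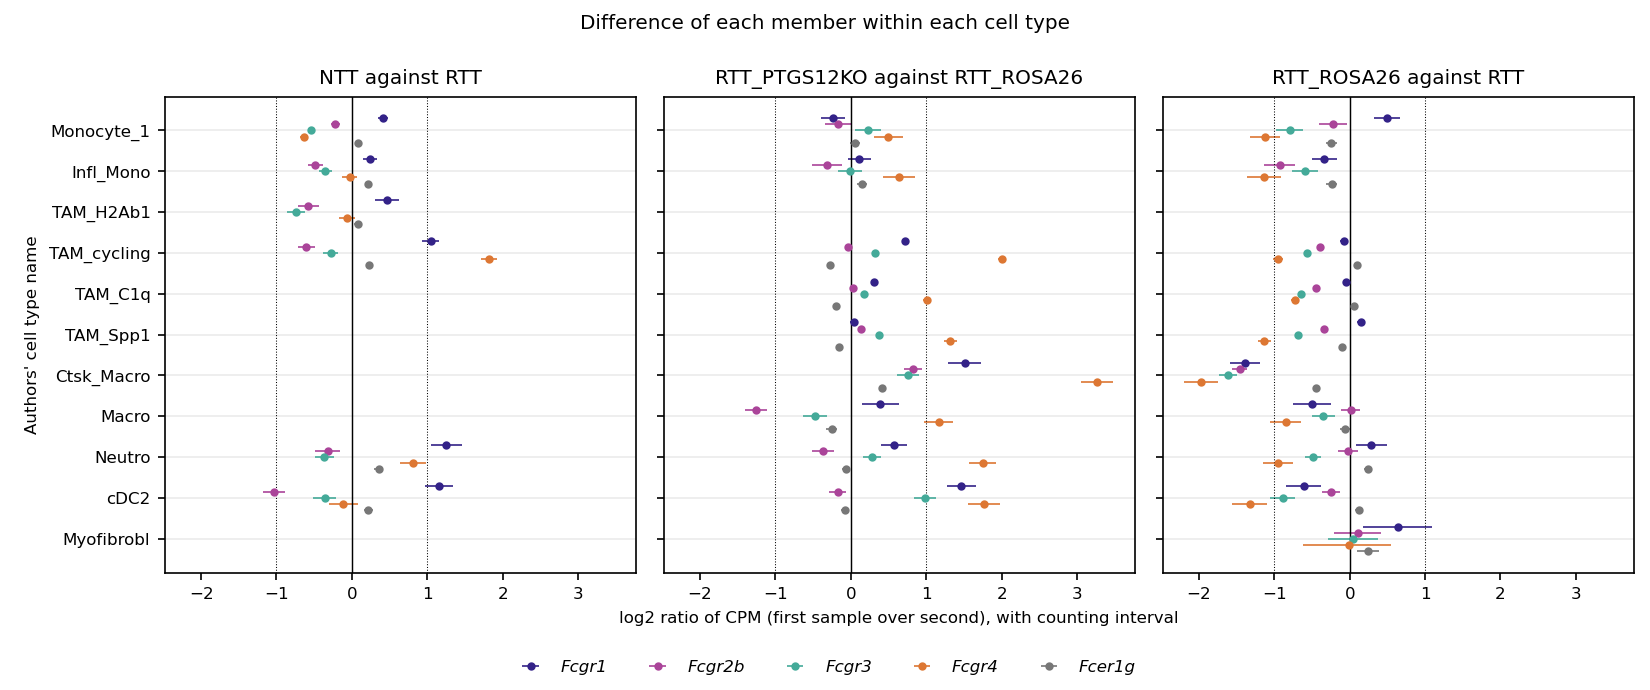
Log2 ratio of CPM (horizontal axes) of each gene within each cell type (rows) with at least 50 cells in both samples, 1 panel per comparison. Bars are counting intervals and dotted lines mark 2-fold. Fcgr4 lies to the right of 0 in all 9 types for RTT_PTGS12KO against RTT_ROSA26 and to the left in 9 of 10 for RTT_ROSA26 against RTT, while Fcgr2b and Fcgr3 lie to the left in all 6 types for NTT against RTT.

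The make-up of the receptor UMIs does not depend on scaling. In monocytes, the share of Fcgr2b in the summed UMIs of the 4 receptors was 21.3% (21.1% to 21.5%) in NTT and 21.5% (20.9% to 22.1%) in RTT, with 22.1% (20.5% to 23.9%) for RTT_ROSA26 and 20.2% (20.0% to 20.5%) for RTT_PTGS12KO. Within Infl_Mono it spread more widely, at 18.2%, 23.4%, 19.8% and 14.8% in the same order. The share of Fcgr4 in monocytes was 25.4%, 30.0%, 18.5% and 27.2% in the same order and that of Fcgr1 27.2%, 18.0%, 31.6% and 24.9%. Shares of one whole move against each other, and 86 of the 144 RTT_ROSA26 monocytes were Infl_Mono. In macrophages the share of Fcgr2b was 20.2% (19.4% to 20.9%) in NTT and 38.7% (38.5% to 38.9%) in RTT, with 40.2% (39.9% to 40.4%) for RTT_ROSA26 and 30.8% (30.6% to 31.0%) for RTT_PTGS12KO. The share of Fcgr4 in macrophages was 32.5%, 9.28%, 6.91% and 17.2% and that of Fcgr1 22.3%, 11.6%, 16.5% and 18.3%. The inhibitory share of NTT macrophages was thus like that of the summed monocytes, RTT and RTT_ROSA26 macrophages had the highest, and RTT_PTGS12KO macrophages lay in between. These sums differ in make-up, as 192 of 308 NTT macrophages were TAM_H2Ab1, whose Fcgr2b share was 17.8% in NTT, 22.4% in RTT and 21.6% in RTT_PTGS12KO. In TAM_cycling it was 20.5%, 37.1%, 38.8% and 27.0% in NTT, RTT, RTT_ROSA26 and RTT_PTGS12KO, the order of the sums.

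**Figure D4:**
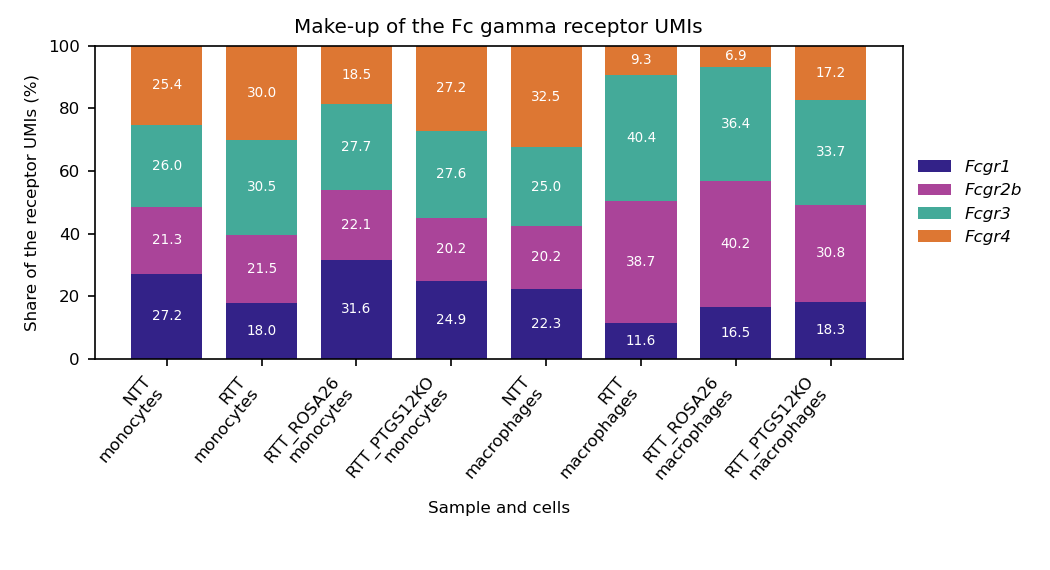
Stacked bars give the share (%) of each receptor gene in the summed UMIs of Fcgr1, Fcgr2b, Fcgr3 and Fcgr4, for monocytes (left) and macrophages (right) of each sample. The Fcgr2b segment is 20.2% to 22.1% in the summed monocytes of all samples and in NTT macrophages, and 30.8% to 40.2% in the macrophages of the other samples, which differ in their share of TAM_H2Ab1.

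The ratio of activating (Fcgr1, Fcgr3 and Fcgr4) to inhibitory (Fcgr2b) UMIs in monocytes was 3.69 (3.65 to 3.74) for NTT and 3.65 (3.52 to 3.78) for RTT, and 3.52 (3.18 to 3.89) for RTT_ROSA26 and 3.94 (3.89 to 4.00) for RTT_PTGS12KO. Between NTT and RTT the log2 difference was 0.017 (−0.039 to 0.072). It was 0.17 (0.019 to 0.31) between RTT_PTGS12KO and RTT_ROSA26, and −0.054 (−0.21 to 0.10) between RTT_ROSA26 and RTT. These sums hide differences by type. The ratio of Infl_Mono ran from 3.28 (3.06 to 3.52) in RTT to 5.75 (5.46 to 6.06) in RTT_PTGS12KO, and that of Monocyte_1 was 3.04 (2.64 to 3.51) in RTT_ROSA26 and 3.78 (3.63 to 3.95) in RTT. In macrophages the ratio was 3.96 (3.78 to 4.16) for NTT and 1.58 (1.57 to 1.60) for RTT, and 1.49 (1.47 to 1.50) for RTT_ROSA26 and 2.24 (2.22 to 2.27) for RTT_PTGS12KO. Here NTT exceeded RTT by a log2 difference of 1.32 (1.25 to 1.39), and RTT_PTGS12KO exceeded RTT_ROSA26 by 0.59 (0.57 to 0.61). Between RTT_ROSA26 and RTT it was −0.089 (−0.11 to −0.070). As for Fcgr4, the ratio of the summed macrophages differed less between RTT_ROSA26 and RTT than in either of the other comparisons. With Fcgr3 left out, because of its sequence shared with Fcgr2b, the differences in macrophages came to 2.33, 0.98 and 0.11, and the last changed sign.

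By type, the ratio of RTT_PTGS12KO exceeded that of RTT_ROSA26 in all 9 types compared, by a log2 difference of 0.27 (0.22 to 0.32) in TAM_Spp1, 0.31 (0.27 to 0.34) in TAM_C1q, 0.77 (0.74 to 0.80) in TAM_cycling and 0.84 (0.68 to 1.00) in Ctsk_Macro, where Fcgr1 and Fcgr4 of RTT_ROSA26 overlapped background. It was 0.51 (0.29 to 0.73) in Infl_Mono and 0.32 (0.11 to 0.52) in Monocyte_1. It was 1.08 (0.91 to 1.25) in neutrophils, with the limit given above, 1.50 (1.35 to 1.65) in cDC2s and 1.54 (1.36 to 1.72) in Macro. For NTT against RTT it was 1.20 (1.07 to 1.32) in TAM_cycling, 1.23 (1.05 to 1.40) in cDC2s, 0.63 (0.44 to 0.82) in neutrophils, 0.45 (0.34 to 0.56) in Infl_Mono and 0.41 (0.26 to 0.57) in TAM_H2Ab1. Monocyte_1 went the other way, at −0.12 (−0.18 to −0.054). The yardstick, RTT_ROSA26 against RTT, gave −0.68 (−0.85 to −0.52) in cDC2s, −0.53 (−0.69 to −0.37) in Macro, −0.41 (−0.57 to −0.25) in neutrophils, −0.32 (−0.53 to −0.10) in Monocyte_1 and 0.30 (0.068 to 0.53) in Infl_Mono, and in Monocyte_1 it was as large in size as the knockout contrast. In 4 macrophage types it was −0.18 (−0.23 to −0.14) in TAM_Spp1, −0.17 (−0.31 to −0.034) in Ctsk_Macro, −0.10 (−0.14 to −0.061) in TAM_cycling and −0.079 (−0.11 to −0.052) in TAM_C1q. Of all types and samples with at least 50 cells, the lowest ratio was that of cDC2s in RTT_ROSA26, 0.814 (0.749 to 0.883). The highest was that of Infl_Mono in RTT_PTGS12KO, 5.75 (5.46 to 6.06).

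**Figure D5:**
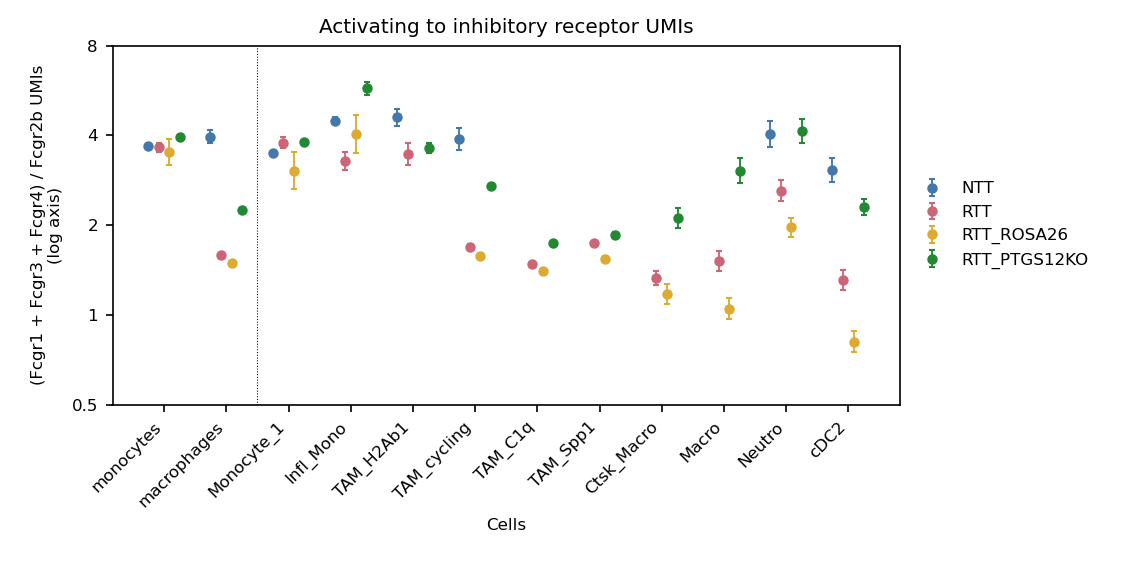
Ratio of activating to inhibitory receptor UMIs (vertical log axis) by cells (horizontal axis) and sample (colour), with 95% counting intervals. In the summed monocytes the 4 samples sit between 3.52 and 3.94, in Infl_Mono they spread from 3.28 to 5.75, and in macrophages they spread from 1.49 in RTT_ROSA26 to 3.96 in NTT.

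Shares of cells with at least 1 UMI of Fcgr4 followed the levels. In macrophages they were 96.8%, 77.5%, 58.9% and 86.7% in NTT, RTT, RTT_ROSA26 and RTT_PTGS12KO, at medians of 11598, 12915, 14097 and 15570 UMIs per cell. With each cell thinned to 3000 UMIs, which left out between 2 and 38 macrophages per sample, the shares were 84.1%, 41.1%, 24.1% and 53.1%. The T cells of NTT came to 7.43% at this depth, with 16.1% before thinning at a median of 12453 UMIs, and Myofibrobl of RTT to 2.89%. All macrophage shares lay above these. In monocytes the thinned shares of Fcgr4 were 82.4%, 89.4%, 58.3% and 79.9% in NTT, RTT, RTT_ROSA26 and RTT_PTGS12KO, and those of Fcgr1 84.8%, 79.0%, 74.4% and 81.6%. Between RTT_ROSA26 and RTT_PTGS12KO, the thinned share of Fcgr4 went from 30.1% to 48.3% in TAM_C1q, from 23.9% to 49.2% in TAM_Spp1 and from 20.5% to 55.1% in TAM_cycling. Thinned to 1500 UMIs, the order of the samples in macrophages was the same, at 67.6%, 25.5%, 13.7% and 35.2%.

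Other genes of the pathway were taken from 5 lists. Over all genes tested, 3.32% in monocytes and 8.89% in macrophages were past 2-fold for NTT against RTT, and 3.98% and 3.34% for RTT_PTGS12KO against RTT_ROSA26. Beside these shares, nothing is read from counts of 1 or 2 genes in lists this short. For NTT against RTT, 0 of 18 kinases and adaptors that carry the signal of activating receptors (among them Syk, Lyn, Btk and Plcg2) were past 2-fold in monocytes, with a median log2 ratio of 0.060. Of the inhibitory phosphatases and adaptors, 0 of 9 were past 2-fold in monocytes and 1 of 9 in macrophages, with medians of 0.16 and 0.035. The one in macrophages was Ptpn22, a low gene named after its values were seen, at 21.4 CPM in NTT and 10.3 in RTT (log2 ratio 1.06, 0.73 to 1.38). For RTT_PTGS12KO against RTT_ROSA26, none of either list was past 2-fold, with medians of 0.061 (kinases and adaptors) and −0.00019 (phosphatases) in monocytes and −0.13 and −0.015 in macrophages.

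Of the 7 genes for the NADPH oxidase, which makes reactive oxygen after receptor engagement, 1 was past 2-fold in macrophages in both main comparisons and none in monocytes. Cybb, its membrane subunit, stood at 695 CPM in NTT and 186 in RTT macrophages (log2 ratio 1.90, 1.84 to 1.96), and at 320.4 CPM in RTT_PTGS12KO and 155 in RTT_ROSA26 (1.05, 1.02 to 1.07). Of the receptors that also pair with the gamma chain, 2 of 5 were past 2-fold and lower in NTT macrophages, and none in monocytes. Clec4d and Clec4n, C-type lectin receptors for microbial sugars, stood at 81.7 and 401 CPM in NTT and at 242 and 1020.0 CPM in RTT. The log2 ratio was −1.57 (−1.73 to −1.41) for Clec4d and −1.35 (−1.42 to −1.28) for Clec4n. The list went both ways, since Pira2 gave 0.99 (0.81 to 1.17), just under the threshold, and Cd300ld 0.59 (0.45 to 0.73), both named after their values were seen. None of these 5 was past 2-fold for RTT_PTGS12KO against RTT_ROSA26 in either class. The macrophages summed differ in make-up, as 192 of 308 were TAM_H2Ab1 in NTT and 63 of 6734 in RTT. Genes of these lists were not compared within single macrophage types.

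Among other Fc receptors and Fc receptor-like genes, 3 of 13 in monocytes and 2 of 13 in macrophages passed the filter for NTT against RTT, and 1 and 2 of them were past 2-fold. Fcrls, an Fc receptor-like gene that is also among the leading genes of TAM_C1q, stood at 121 CPM in NTT and 620.4 in RTT macrophages (log2 ratio −2.36, −2.49 to −2.23). In monocytes, where it was the gene past 2-fold in both main comparisons, it stood at 8.86, 84.2, 133 and 27.8 CPM in NTT, RTT, RTT_ROSA26 and RTT_PTGS12KO. The NTT level overlapped that of its T cells (7.69 CPM) and the RTT_PTGS12KO level that of its NK cells (24.3 CPM). Monocyte_1 overlapped Myofibrobl in RTT (22.0 and 19.4 CPM) and in RTT_ROSA26 (55.8 and 46.0 CPM), so these levels are not read as expression. Infl_Mono lay above Myofibrobl, at 261 CPM over 138 cells in RTT and 191 CPM over 86 cells in RTT_ROSA26. Neutrophils held more, at 306 and 633 CPM in these samples, and the Infl_Mono levels are not read as expression either. Fcgrt, which encodes the neonatal Fc receptor that recycles IgG, stood at 84.1 CPM in NTT and 181 in RTT macrophages (−1.11, −1.27 to −0.95). In the summed macrophages, both genes thus lay on the opposite side from Fcgr1 and Fcgr4. These sums differ in make-up, with 12 cells of TAM_C1q in NTT and 3412 in RTT. Fcrls and Fcgrt were not compared within single macrophage types. For RTT_ROSA26 against RTT, none of the genes of the 5 lists was past 2-fold in either class.

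Across the 42 groups of 1 type in 1 sample with at least 50 cells, log2(CPM + 1) of the members varied together. The receptors are high in myeloid cells and low elsewhere, Fcer1g is high in NK cells as well, and the groups share libraries, so the values are a description. Pearson's r was 0.937 between Fcgr2b and Fcgr3, 0.902 between Fcgr1 and Fcgr4, 0.884 between Fcgr1 and Fcgr3 and 0.736 between Fcgr2b and Fcgr4, the lowest of the 10 pairs. Among 5122 genes, those most like Fcgr1 were Ctsc (0.952), Lst1 (0.947) and Klra2 (0.940), and those most like Fcgr4 were Hk3 (0.927), Klra2 (0.924) and Cybb (0.911). Those most like Fcgr2b were Cd300c2 (0.946), Fcgr3 (0.937) and Pid1 (0.925), and those most like Fcgr3 were Fcgr2b (0.937), Tifab (0.937) and Ms4a6c (0.936). For Fcer1g they were Tifab (0.927), Lyn (0.921) and Tnfaip8l2 (0.918).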

How the data were processed

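The authors deposited a matrix of UMI counts, genes by cells (10x Genomics 3' libraries with sample tags, Cell Ranger and the mm10 build per the labels) and a table with the sample and cell type of each cell, made with Seurat 4.3.0, after filters on genes, mitochondrial and ribosomal share per cell. These counts were used as deposited, and the authors' cell filter and type names were kept. UMIs were summed per sample and type and divided by all UMIs of the same cells (CPM), with Python 3.11.15, numpy 2.4.6, scipy 1.17.1 and pandas 2.3.3. Depth ranged from 69332486 to 146829369 UMIs per sample. With 1 sample per group, comparisons are log2 ratios with 95% exact intervals for counting error, and a gene counts as called past 2-fold, among genes whose mean CPM over both samples reached 10. A sum of 0 UMIs was set to 3. The named genes are the 5 members, the 3 genes most correlated with each (at least 50 CPM in a group) and up to 2 per pathway list past 2-fold. The members, lists and motifs were chosen with earlier results of these data known. Alternatives covered TMM factors (edgeR 4.0.16, R 4.3.3), filters, thresholds, chip loads and cell types. The scripts were tested on simulated data. The NTT to RTT result of the signalling list in macrophages is not reported here. No doublet caller was run. Promoters were read from RefSeq sequence, and 60-base stretches from the mm10 transcripts.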

Additional observations from a re-analysis of the deposited data

Results flagged for a closer look

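With 1 sample per group, opposite directions in monocytes and macrophages were noted where the counting intervals lay on either side of 0, and none of these differences was tested. For NTT against RTT, Fcgr4 had a log2 ratio of −0.50 in monocytes and 1.96 in macrophages. For RTT_PTGS12KO against RTT_ROSA26, Fcgr1 had −0.12 in monocytes (−0.24 in Monocyte_1 and, with 0 in its interval, 0.11 in Infl_Mono) and 0.58 in macrophages, and Fcer1g had 0.12 and −0.17. For RTT_ROSA26 against RTT, Fcgr1 had 0.19 in monocytes and −0.13 in macrophages. The monocyte types disagreed here, with 0.50 (0.32 to 0.67) in Monocyte_1 and −0.34 (−0.50 to −0.17) in Infl_Mono, and the sum ranged from 0.039 with equal weights to 0.45 without Infl_Mono.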

How the results depend on the processing

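No paired analysis was possible because no group has a second sample. Of 138 recomputed counts of members past 2-fold, 127 stayed within 1.5 times the reported count. With types given equal weight, the count for NTT against RTT fell to 0 in all cells (3.91% of all genes past 2-fold) and 0 in macrophages (5.26%), and it was 1 in macrophages without TAM_H2Ab1 (8.81%). The macrophage settings were chosen after seeing the data. These alternatives change which cells are weighed. At 1.5-fold, RTT_PTGS12KO against RTT_ROSA26 had 2 in all cells and 1 in monocytes, against 13.6% and 16.2% of all genes, and RTT_ROSA26 against RTT had 2 in all cells, 3 in monocytes and 2 in macrophages, against 6.15%, 15.9% and 6.39%. In chip load 3 alone, RTT_PTGS12KO against RTT_ROSA26 had 1 in monocytes, against 8.89%. For RTT_ROSA26 against RTT in macrophages the count was 0 with 10 added to CPM (0.425% of all genes) and 0 in chip load 1 alone (1.67%). The cause was not tested.

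Of 54 recomputed differences in the activating to inhibitory ratio, 35 stayed within the reported interval. For NTT against RTT in monocytes the difference was −0.050 without the 5% of cells with the most UMIs, −0.057 in chip load 1, −0.12 without Infl_Mono and 0.15 without Fcgr3, so it has no stable direction. In macrophages it was 1.25 in chip load 3, 1.07 without TAM_H2Ab1 and 2.33 without Fcgr3. Without Infl_Mono, monocytes gave 0.31 in the knockout contrast and −0.31 in RTT_ROSA26 against RTT. In macrophages, RTT_PTGS12KO against RTT_ROSA26 gave 0.57 and 0.62 in chip loads 1 and 2, 0.51 as a mean over cells, 0.46 without TAM_cycling, 0.54 without TAM_H2Ab1 and 0.98 without Fcgr3. RTT_ROSA26 against RTT gave −0.040 and −0.13 in chip loads 1 and 3, −0.13 without TAM_cycling and, reversed, 0.11 without Fcgr3.

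TMM factors shift all log2 ratios in all cells, by 0.15 in NTT against RTT and by 0.13 in the knockout contrast. Of 555 recomputed log2 ratios of single members, 214 left the reported counting interval without turning a called direction, and 4 whose intervals left out 0 reversed, all of them in all cells. Fcgr2b and Fcer1g reversed for RTT_PTGS12KO against RTT_ROSA26 with TMM factors (0.055 and 0.053), and Fcer1g for RTT_ROSA26 against RTT as a mean over cells (−0.042) and with types given equal weight (−0.056). Fcgr2b for RTT_PTGS12KO against RTT_ROSA26 in monocytes, whose interval held 0, also changed sign, to −0.14 without Infl_Mono and −0.23 with types given equal weight. The monocytes of RTT_ROSA26 rest on 144 cells, 54 of them Monocyte_1.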
